A study of Mus musculus with 6 samples.

Results

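8 noncoding RNAs of mouse chromosome 17 were followed in splenic CD4 T cells of mice with and without H2-O: A930015D03Rik, Gm20478, Gm20442, Gm10505, Gm15420, Gm49719, Gm10503 and Gm9937. They are 8 of the 32285 genes counted, found by gene symbol, and they were chosen by their difference between the genotypes in these same libraries, so that this difference is described and not tested. The 3 H2-O KO (knock-out) and 3 H2-O WT (wild-type) libraries come from the spleens of naive mice, labelled C57BL6/J and 8 weeks old for both genotypes, with 1 library per mouse. CD3+CD4+ cells were sorted without B220+ and NK1.1+ cells by the labels, and the study's methods name female mice of a higher age. The H2-O WT mice were purchased C57BL/6J stock bred in house and the knock-out mice were bred in house as well; whether any of them were littermates is not given in the sources used here, so that genotype and colony cannot be told apart. Each library was a 10x Genomics 5' scRNA-seq run, in which every captured RNA molecule is counted once as a unique molecular identifier (UMI).

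H2-O is a heterodimer of H2-Oa and H2-Ob that acts with H2-DM, the editor that exchanges peptides on MHC class II molecules. H2-O has been described as an inhibitor of H2-DM, while the study proposes that it cooperates with H2-DM in peptide selection. It is known mainly from B cells, thymic medulla and dendritic cells. A long noncoding RNA is a transcript without a protein product, and an antisense RNA is one that is transcribed from the strand opposite to another gene. Some act on the gene beside them, many have no known function, and no function is assumed here for any of the 8 RNAs.

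All 8 RNAs lie on chromosome 17 of GRCm38, as does H2-Oa (ENSMUSG00000024334, from 34092340 to 34095234 on the plus strand). None of them starts within 1 Mb of the start of H2-Oa, 5 start within 4 Mb, 7 within 7 Mb, and the farthest lies 27.1 Mb away, so that "near H2-Oa" holds for them only on this scale. On the side of higher coordinates, Gm20442 (ENSMUSG00000092600, lincRNA, from 35743323 to 35764191, minus strand) starts 1.65 Mb away between the receptor tyrosine kinase gene Ddr1 and Ier3 and overlaps no coding gene. A930015D03Rik (ENSMUSG00000092368, from 35994453 to 36038435, plus strand) starts 1.90 Mb away. It runs antisense through the class Ib genes H2-T24, H2-T23 and H2-T22, and 1003 of its exonic bases lie opposite exons of H2-T22. Gm20478 (ENSMUSG00000092474, from 36167982 to 36171805, plus strand) starts 2.08 Mb away, antisense to the class I gene Gm8909 over 385 exonic bases.

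On the side of lower coordinates, Gm10503 (ENSMUSG00000117786, from 30920338 to 30963220, minus strand) runs opposite the end of Glp1r and the start of Umodl1. It has 0 exonic bases opposite their exons. Gm9937 (ENSMUSG00000118119, from 30873992 to 30875284, minus strand) lies opposite the axonemal dynein gene Dnah8 over 443 exonic bases. The starts of Gm10503 and Gm9937 lie at -3.17 and -3.22 Mb from that of H2-Oa, on the side of lower coordinates. Gm15420 (ENSMUSG00000087387, from 27635343 to 27636868, plus strand) is antisense to the ribosomal protein gene Rps10, and Gm10505 (ENSMUSG00000073430, from 27325035 to 27344833, plus strand, 26 annotated transcripts) overlaps no coding gene. Gm49719 (ENSMUSG00000116618, from 6948446 to 6957196, plus strand) is antisense to Rsph3b and to the T cell activation GTPase-activating protein gene Tagap1, over 90 and 405 exonic bases.

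The position of reads within the transcripts was not examined. Shown are the first 91 bases, the length of the read, of the longest GENCODE transcript of 4 RNAs on which the results turn. They are Gm20442 (chr17:35764101-35764191, minus strand), Gm10503 (chr17:30963130-30963220, minus strand), Gm10505 (chr17:27335912-27336002, plus strand) and Gm20478 (chr17:36167982-36168072, plus strand), all on GRCm38, and each run lies in 1 exon and over no annotated UTR.
Gm20442: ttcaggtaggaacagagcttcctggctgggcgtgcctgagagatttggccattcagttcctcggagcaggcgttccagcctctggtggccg
Gm10503: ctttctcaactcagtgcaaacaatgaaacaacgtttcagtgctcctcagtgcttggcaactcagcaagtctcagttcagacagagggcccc
Gm10505: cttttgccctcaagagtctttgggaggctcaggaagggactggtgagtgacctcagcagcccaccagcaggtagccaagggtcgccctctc
Gm20478: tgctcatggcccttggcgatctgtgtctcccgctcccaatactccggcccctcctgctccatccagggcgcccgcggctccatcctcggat
The starts of Gm20442, Gm10503 and Gm10505 had no match of at least 95% identity over at least 90% of their length in another annotated gene. That of Gm20478 had 5, all on the opposite strand of class I genes, among them Gm8909 at 100% and H2-Q7 at 97.8% identity.

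Among the RNAs, Gm49719 has a near-identical copy whose transcript matches it in the sense direction, and A930015D03Rik a more distant one. Gm49719 matched E430024P14Rik, on the minus strand of the same chromosome, over all of its 667 bases with 5 mismatches, an identity of 99.3%. Of the 577 stretches of 91 bases in Gm49719, 273 (47.3%) were identical in the copy, so that a read from them fits both genes. A930015D03Rik matched BC023719 over 84.1% of its 1111 bases at an identity of 94.6%, and 80 of its 1021 stretches of 91 bases (7.84%) were identical. The stretches of 60 bases with most mismatches are shown with the mismatched bases in capitals, from chr17:6948453-6948512 (plus strand) and chr17:7945823-7945882 (minus strand) for the first pair and chr17:36037563-36037622 and chr17:36116241-36116300 (both plus strand) for the second, on GRCm38.
Gm49719: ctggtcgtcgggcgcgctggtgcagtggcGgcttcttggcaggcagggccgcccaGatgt
E430024P14Rik: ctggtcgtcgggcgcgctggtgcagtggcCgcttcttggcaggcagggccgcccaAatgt
A930015D03Rik: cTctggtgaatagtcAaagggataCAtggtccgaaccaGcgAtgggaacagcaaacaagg
BC023719: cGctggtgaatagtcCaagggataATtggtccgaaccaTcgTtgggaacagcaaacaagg
The capitals mark the bases by which a read of this stretch could be given to 1 gene of the pair.

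T cells were taken as cells with a UMI of Cd3d, Cd3e, Cd3g or Trac and none of the B cell, C1q and CD8 genes Cd79a, Ms4a1, C1qa, C1qb, C1qc, Cd8a and Cd8b1, which left 15889 in knock-outs and 9630 in wild types, with 6731130 to 34249622 UMIs per library. The 5 T cell genes (with Cd4) summed to 2806 to 2923 CPM (a gene's UMIs per 1000000 UMIs of all genes in the same cells) in knock-outs and 2509 to 2626 CPM in wild types. Of the genes not used by the gate, 3 B cell genes (Cd79b, Ly6d, Ebf1) summed to 5.82 to 6.89 and 4.47 to 6.27 CPM, 4 macrophage genes to 1.58 to 2.69 and 0.891 to 15.0 CPM, 2 NK cell genes to 0.642 to 1.68 and 1.47 to 2.31 CPM, and 3 haemoglobin genes to 1.05 to 62.2 and 0.0745 to 1.19 CPM, every gene detected. T cells with under 10% of their UMIs from ribosomal protein genes, called ribosome-poor here, made up 2.93% to 14.5% of T cells in knock-outs and 17.8% to 40.0% in wild types. Pairs of libraries shared 21 to 99 cell barcodes, 0.537% to 1.41% of the smaller library. The part of these differences in the results was not tested beyond the values given for ribosome-rich cells and for unshared barcodes. In sums over cells, fewer cells that express an RNA and less RNA per cell cannot be told apart.

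H2-Oa, the targeted gene, was low in T cells of both genotypes, at 4.03, 2.81 and 3.48 CPM in knock-out replicates 1 to 3 and 4.75, 4.91 and 7.15 CPM in wild-type replicates 1 to 3. The genotypes did not overlap, but the UMIs in knock-outs show that the gene's row is not empty there, and which part of the gene was deleted is not given in the sources used here. In Foxp3+ T cells the gap was wide, with 1.90, 0.538 and 1.99 CPM against 13.4, 13.1 and 20.5 CPM, from 6, 1 and 5 UMIs and from 8, 21 and 24 UMIs. In Foxp3-negative T cells the genotypes overlapped, at 3.68 ± 0.574 and 4.66 ± 1.06 CPM (SD, n = 3), from 246 and 172 UMIs.

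In T cells, all 8 RNAs stood higher in every knock-out library than in every wild-type library. Of all 12152 genes tested between the genotypes (edgeR quasi-likelihood test, adjusted p under 0.05), 31.6% were called, 14.3% higher and 17.3% lower in knock-outs, and 0.346% were called with a difference of at least 4-fold. All 8 RNAs passed the low-count filter and 6 of them were past 4-fold. Since this difference chose them, nothing follows from these counts.

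Gm20442, the lincRNA between Ddr1 and Ier3, had 52, 20 and 24 UMIs in knock-out replicates 1 to 3 and 0 UMIs in each wild-type library. Its level was 1.29 ± 0.202 CPM (SD, n = 3) in knock-outs. Against the limit that 0 UMIs allow over the wild-type libraries together (3 UMIs, 0.0751 CPM) it was at least 17.8-fold higher. Gm10503, opposite Glp1r and Umodl1, followed the same pattern, with 59, 32 and 47 UMIs against 0, 1 and 0 UMIs. The ratio of its pooled CPM was 76.6, with an exact 95% counting interval of 13.5 to 3047 that covers counting error only. The single wild-type UMI sets this value, and without wild-type replicate 2 the fitted log2 fold change of Gm10503 was 8.19, beside 6.0 with all libraries. Both RNAs were thus at or next to 0 in wild types and low in knock-outs.

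Gm20478, antisense to Gm8909, stood at 7.85, 6.23 and 6.15 CPM in knock-outs and at 0, 0.202 and 0.149 CPM in wild types, from 6 UMIs in all wild-type libraries together. The ratio of pooled CPM was 46.4, with a counting interval of 21.2 to 127. A930015D03Rik, antisense to H2-T22, stood at 19.1, 16.8 and 18.1 CPM in knock-outs and at 0.149, 1.87 and 2.16 CPM in wild types. The knock-out libraries lay close together, while wild-type replicate 1 stood apart. Its single UMI gives a 95% Poisson interval of 0.00376 to 0.828 CPM, below those of replicates 2 (1.32 to 2.58 CPM) and 3 (1.45 to 3.10 CPM), and this UMI came from a cell whose barcode is also found in a library of the other genotype. The mean in knock-outs was 12.9 times that in wild types, and the fitted log2 fold change was 3.52 ± 0.30 (SE) with all T cells and 3.51 ± 0.35 without cells of shared barcodes.

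Gm9937, opposite Dnah8, stood at 1.72, 1.92 and 0.954 CPM in knock-outs and at 0, 0.506 and 0.223 CPM in wild types. In knock-outs the level of replicate 3 was the lowest, and its Poisson interval, from 0.583 CPM, reaches below the upper bound of 0.931 CPM in wild-type replicate 2. Without wild-type replicate 2 the fitted log2 fold change of Gm9937 was 3.44, beside 2.32 with all libraries. Gm15420, antisense to Rps10, stood at 2.19, 2.22 and 1.86 CPM against 1.04, 0.961 and 0.670 CPM, a ratio of the means of 2.35. Gm10505, which overlaps no coding gene, had the smallest difference, with 2.36, 2.69 and 2.05 CPM against 0.743, 0.708 and 1.94 CPM. Wild-type replicate 3 lay next to knock-out replicate 3, and the ratio of the means was 2.10. Without wild-type replicate 3 the fitted log2 fold change of Gm10505 was 1.76, beside 1.1 with all libraries. Both of these RNAs were seen in every library of both genotypes.

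**Figure D1:**
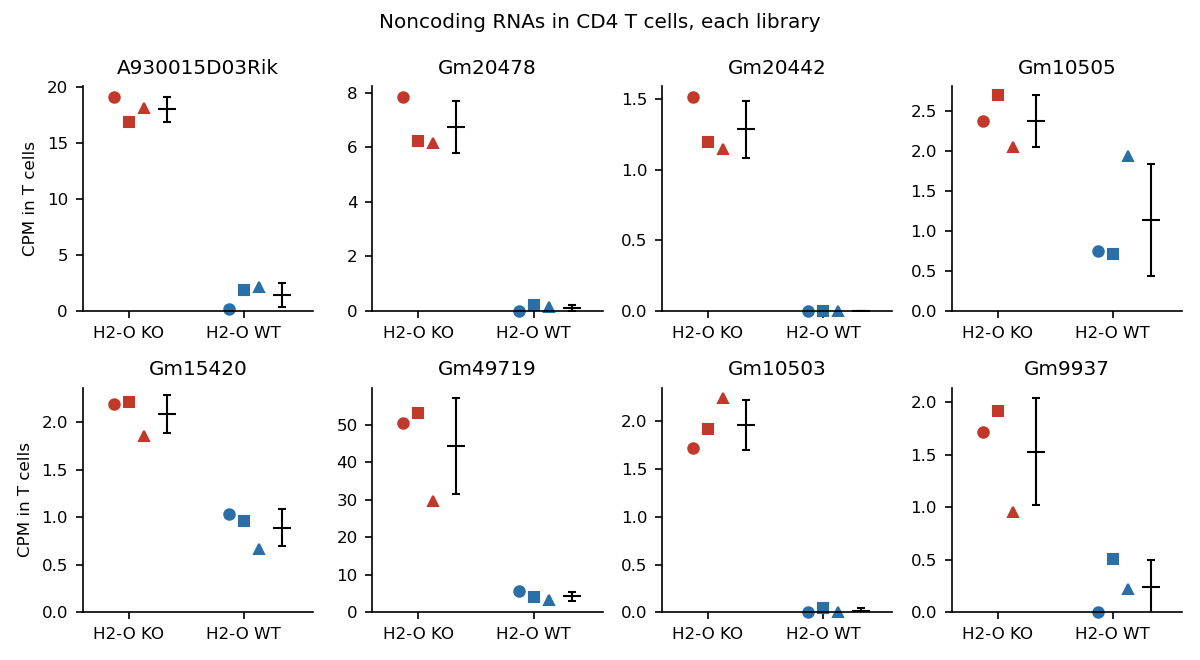
Level of each noncoding RNA in T cells (CPM, linear axis from 0) by library, with knock-outs in red, wild types in blue, and the circle, square and triangle for replicates 1, 2 and 3. Black marks give the mean and SD of 3 libraries. Gm20442 is at 0 in every wild-type library, A930015D03Rik is lower in wild-type replicate 1 than in replicates 2 and 3, and Gm10505 has its genotypes next to each other.

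Gm49719 had the most UMIs of the 8 RNAs, 1729, 886 and 624 in knock-outs and 38, 81 and 44 in wild types. Its level was 50.5, 53.0 and 29.8 CPM against 5.65, 4.10 and 3.28 CPM, a ratio of the means of 10.2. Its copy E430024P14Rik went the other way, with 13.8, 10.2 and 9.97 CPM in knock-outs and 41.3, 53.4 and 32.8 CPM in wild types (log2 fold change -1.85 ± 0.20 SE, edgeR adjusted p = 0.00121). The sum of both was 64.2, 63.2 and 39.7 CPM in knock-outs and 46.9, 57.5 and 36.1 CPM in wild types, and on the sum the genotypes overlapped. Gm49719 took 79.1% ± 4.52 (SD, n = 3) of the UMIs of the pair in knock-outs and 9.41% ± 2.46 (SD, n = 3) in wild types. With ribosome-rich T cells alone the mean share was 79.2% ± 4.49 (SD, n = 3) and 8.58% ± 2.85 (SD, n = 3).

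The coding genes that Gm49719 overlaps have paralogs, Tagap and Rsph3a, and the same look at the pairs was taken after their values were seen. Tagap1 rose, from 3.71, 3.19 and 3.13 CPM in wild types to 20.4, 22.3 and 18.5 CPM in knock-outs (log2 fold change 2.69 ± 0.13, adjusted p = 1.01e-05). Tagap, the more abundant paralog in every library, stood at 221, 232 and 183 CPM in knock-outs and 184, 210 and 162 CPM in wild types (log2 fold change 0.25 ± 0.12, adjusted p = 0.15). Rsph3b, a radial spoke gene, held 12.7, 14.8 and 14.5 CPM against 10.7, 9.66 and 11.5 CPM (0.46 ± 0.11, adjusted p = 0.0104), and Rsph3a 4.88, 4.97 and 4.34 CPM against 6.98, 6.22 and 8.34 CPM (-0.54 ± 0.16, adjusted p = 0.0263), a call lost without any 1 library except wild-type replicate 2. The sums of Rsph3b and Rsph3a overlapped between genotypes, at 18.8 ± 1.14 and 17.8 ± 1.96 CPM (SD, n = 3). How reads that fit both genes of a pair were counted is not given in the sources used here, and the share of such reads was not tested.

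**Figure D2:**
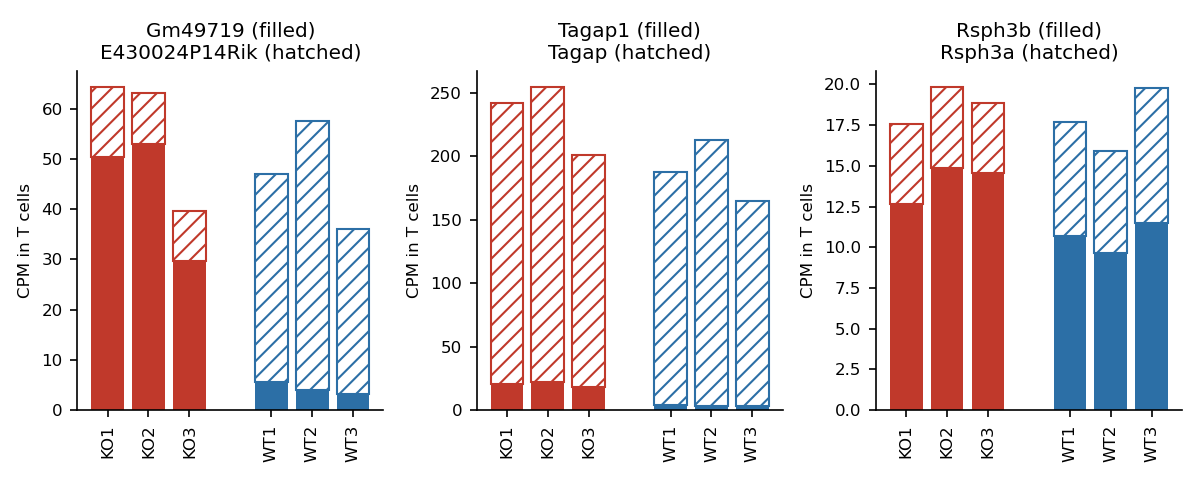
CPM in T cells of 3 gene pairs by library (stacked bars from 0, knock-outs in red and wild types in blue), with the gene at the Gm49719 locus filled and its copy or paralog hatched. The filled part of the first pair is 29.8 to 53.0 CPM in knock-outs and 3.28 to 5.65 CPM in wild types, while the whole bars of the genotypes overlap.

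The coding genes around the RNAs were taken by position alone, as those that overlap an RNA or lie next to it on each side. Of 24 such genes, 20 passed the low-count filter, and 9 of these were called higher and 2 lower in knock-outs. This is a share of 55%, beside 31.6% of all genes and 38.1% of the genes of chromosome 17. The positions are those of RNAs chosen by their difference in these same libraries, and some of the genes overlap an RNA. The share is therefore a description and not a test free of that choice. On library totals in place of TMM, the share of all calls that were higher went from 45.2% to 34.6%. The neighbours' median log2 fold change was 0.19, and that of all genes tested 0.0047. Grm4, Gm8909, Glp1r and Umodl1 were too low to test, with 0 to 6 UMIs per library. The sources used here do not say whether strand was used in counting, and without it the reads of an antisense RNA and of the gene opposite to it cannot be told apart.

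The class Ib genes around A930015D03Rik and Gm20478 differed among themselves. H2-T22, whose exons lie opposite A930015D03Rik, rose from 255, 264 and 270 CPM in wild types to 491, 502 and 463 CPM in knock-outs (log2 fold change 0.94 ± 0.07, adjusted p = 0.000142). H2-T23, the mouse Qa-1 gene, lies within the same RNA and stood at 328, 324 and 318 CPM in knock-outs and 349, 370 and 389 CPM in wild types, which did not pass the test (-0.13 ± 0.07, adjusted p = 0.173). H2-T24 stood at 23.3, 26.3 and 23.4 CPM against 20.1, 19.4 and 22.4 CPM (0.29 ± 0.08, adjusted p = 0.0254), a call lost without knock-out replicate 1 or 2 or wild-type replicate 1, with adjusted p up to 0.203 over all settings tried. H2-T3, which encodes the thymus leukemia antigen and lies 13.8 kb from Gm20478, had 237, 163 and 145 UMIs in knock-outs and 0, 0 and 2 UMIs in wild types (adjusted p = 0.000113). This is a ratio of 151 with a counting interval of 41.7 to 1252. The pattern is close to that of Gm20442, which had 0 UMIs in wild types.

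Gm19684, the coding model on the other side of Gm20478, rose from 9.81, 9.77 and 9.83 CPM to 24.2, 29.9 and 21.3 CPM (log2 fold change 1.41 ± 0.13, adjusted p = 0.00059). Gnl1, a GTPase gene 4.99 kb from A930015D03Rik, rose as well (0.67 ± 0.08, adjusted p = 0.00139), and Gm6034 on its other side was at 1.81 to 4.32 CPM in both genotypes. Ddr1 fell, with 0.146, 0.0599 and 0.191 CPM in knock-outs and 3.12, 3.69 and 4.10 CPM in wild types (-4.61 ± 0.36, adjusted p = 0.000204). It lies 38.7 kb from Gm20442 and moved against it, while Ier3, 57.5 kb from Gm20442 on the other side, did not pass the test (-0.91 ± 0.42, adjusted p = 0.129).

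Around Gm9937 and Gm10503, Glo1, the glyoxalase gene, rose from 54.1, 56.7 and 49.3 CPM to 164, 161 and 164 CPM (1.67 ± 0.08, adjusted p = 1.01e-05). Dnah8, opposite Gm9937, rose from 78.0, 64.4 and 78.0 CPM to 178, 161 and 205 CPM (1.37 ± 0.10, adjusted p = 0.000129). The cholesterol transporter gene Abcg1 was lower in knock-outs (-0.29 ± 0.08, adjusted p = 0.0253), but not in ribosome-rich T cells or without any 1 of knock-out replicates 1 and 3 and wild-type replicates 1 and 2, with adjusted p up to 0.834. By contrast, none of the tested neighbours of Gm10505 and Gm15420 passed. Rps10, opposite Gm15420, had a log2 fold change of 0.25 ± 0.11 (adjusted p = 0.107), Lemd2 of 0.13 ± 0.08 (adjusted p = 0.223), Nudt3 of -0.08 ± 0.08 (adjusted p = 0.514) and Pacsin1 of 0.00 ± 0.07 (adjusted p = 0.996). Of the outer neighbours of Gm49719, Ezr and Rnaset2b did not pass either (adjusted p = 0.256 and 0.266).

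In ribosome-rich T cells, 8.74% of 11951 genes were called and 10 of the 20 neighbours, 8 higher and 2 lower. The 2 lower were Ddr1 and H2-T23 (-0.29 ± 0.06, adjusted p = 0.0268), and H2-T24 and Abcg1 were not called. H2-T22, Gnl1, Gm19684, H2-T3, Ddr1, Tagap1, Dnah8 and Glo1 were called in each of the 23 settings of the comparison. The log2 fold changes of the 8 RNAs between genotypes in these cells ranged from 1.03 for Gm10505 to 7.56 for Gm20442, all positive, and that of Gm20442 in all T cells was 7.63.

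Along chromosome 17, 37 of the 81 genes tested within 1 Mb of H2-Oa were called, 30 higher and 7 lower in knock-outs. This is 45.7%, beside 31.6% of all genes and 38.1% of the genes of chromosome 17. In ribosome-rich T cells 12 of 81 were called, 14.8% beside 8.74%. None of the 8 RNAs is among them. Of the 42 genes called with at least a 4-fold difference across the genome, 23 lie on chromosome 17, and without the 8 RNAs 17 of 36 do, 7 higher and 10 lower. They stretch from 27.7 Mb below to 14.4 Mb above H2-Oa. In ribosome-rich T cells 23 of 30 such genes lie on chromosome 17, 17 of 24 without the 8 RNAs. Chromosome 17 holds 649 of the 12152 genes tested.

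**Figure D3:**
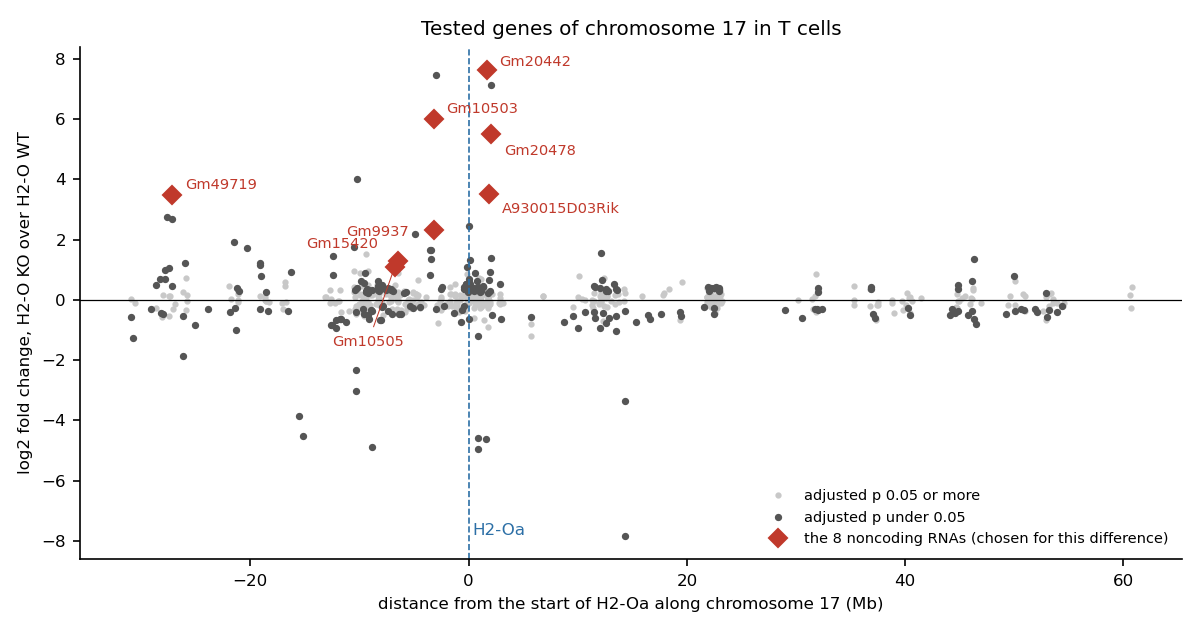
Log2 fold change between the genotypes of each tested gene of chromosome 17 in T cells against its distance from the start of H2-Oa in Mb, with dark points for adjusted p under 0.05 and red diamonds for the 8 noncoding RNAs, which were chosen for this difference. Called differences of at least 4-fold (2 on this axis) lie between 27.7 Mb below and 14.4 Mb above H2-Oa.

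Without the 8 RNAs, 69 noncoding genes of chromosome 17 were tested, of which 10 were called higher and 4 lower, with a median log2 fold change of 0.17. This is 20.3%, beside 31.6% of all genes and 16.1% of the noncoding genes of other chromosomes. With the 8 RNAs kept in, 22 of 77 were called, 28.6%. In ribosome-rich T cells 3 of 68 were called higher and 2 lower, 7.35% beside 8.74% of all genes and 1.71% of the noncoding genes of other chromosomes. With the 8 RNAs kept in, 12 of 76 were called there, 15.8%. Leaving out RNAs chosen for this difference lowers the share and keeping them raises it, so neither share is a test against the background. The largest rises were BC051537 (2.46 ± 0.47), which starts next to H2-Oa, on the side of lower coordinates, and 1700097N02Rik (1.65 ± 0.15), 3.47 Mb below it. E430024P14Rik and Gm10501 (-1.19 ± 0.27) had the largest falls. Of 11 genes of the class II pathway 8 were tested and 3 called, 37.5% beside the 31.6% of all genes. H2-DMa (0.61 ± 0.09, adjusted p = 0.00218) and H2-Ob (0.54 ± 0.10, adjusted p = 0.00428) rose and H2-Oa fell (-0.63 ± 0.21, adjusted p = 0.0477), with a median of 0.19. The call of H2-Oa was lost without any single library and in ribosome-rich T cells, with adjusted p up to 0.199. Of 8 genes of class I peptide loading 4 were called, with the same background. The immunoproteasome genes Psmb8 (0.44 ± 0.07, adjusted p = 0.00222), Psmb9 (0.35 ± 0.08, adjusted p = 0.0117) and Psmb10 rose and Nlrc5 (-0.42 ± 0.09, adjusted p = 0.00887) fell, with a median of 0.15. In ribosome-rich T cells H2-DMa, H2-Ob and Psmb8 were called higher and B2m lower, and H2-Oa, Psmb9, Psmb10 and Nlrc5 were not called.

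Comparisons between kinds of T cell did not enter the choice of the RNAs and were tested within libraries. Their interactions with genotype contain the genotype difference that chose the RNAs, and are not free of that choice. Foxp3+ cells, those with a UMI of the Treg factor Foxp3, were set against Foxp3-negative cells, a contrast in which 38.5% of 10918 genes were called, 51.4% of them higher with TMM and 76.7% on library totals. Gm10505 was higher in Foxp3+ cells in 6 of 6 libraries, with 5.69, 6.46 and 5.58 CPM against 2.03, 2.22 and 1.57 CPM in knock-outs and 5.04, 1.25 and 5.98 CPM against 0.326, 0.661 and 1.55 CPM in wild types. The difference was 1.56 ± 0.29 on the log2 scale (edgeR adjusted p = 0.000116). It rests on 56 UMIs in Foxp3+ and 158 in Foxp3-negative cells, and in knock-out libraries alone it was 1.46 ± 0.31 (adjusted p = 0.000371). Wild-type replicate 2 had the smallest step, from 2 UMIs in Foxp3+ cells.

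A930015D03Rik was lower in Foxp3+ cells in 6 of 6 libraries, with 16.4, 12.9 and 17.5 CPM against 19.3, 17.3 and 18.2 CPM in knock-outs and 0, 1.25 and 1.71 CPM against 0.163, 1.93 and 2.20 CPM in wild types (-0.38 ± 0.15, adjusted p = 0.0398). The wild-type values in Foxp3+ cells come from 0, 2 and 2 UMIs. The call was lost without any 1 of the knock-out replicates, with adjusted p from 0.0534 to 0.151, and on library totals (-0.23, adjusted p = 0.22). Gm49719 (-0.17 ± 0.10, adjusted p = 0.219), Gm20478 (0.27 ± 0.24, adjusted p = 0.405), Gm15420 (-0.30 ± 0.44, adjusted p = 0.629) and Gm10503 (0.42 ± 0.42, adjusted p = 0.456) did not pass, and Gm20442 and Gm9937 were too low to test, with 8 and 5 UMIs in Foxp3+ cells. The difference between the genotypes in this contrast was tested as an interaction, in which 0.00916% of genes were called, 1 gene, and 636 had an unadjusted p under 0.05. That gene was H2-Oa, and none of the 6 RNAs tested was called (adjusted p from 0.894 to 0.981). Gm20478 and Gm10503 had 0 UMIs in Foxp3+ cells of every wild-type library, so that their interactions (3.97 ± 3.34 and 1.99 ± 4.35 SE) say nothing at this depth. The interactions of the other 4 ranged from -0.44 ± 0.64 for Gm10505 to 0.45 ± 1.26 for Gm15420, with adjusted p from 0.926 to 0.981.

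Ribosome-poor cells were compared with ribosome-rich cells, a contrast in which 72% of 10944 genes were called and in which the scaling weighs. Without TMM normalization the median gene moved by 0.68 on the log2 scale, and by 0.13 in the contrast of Foxp3+ cells. With it, 50.7% of the calls were higher in ribosome-poor cells, and 78.0% without it. Gm49719 was lower in ribosome-poor cells of knock-outs, with 12.8, 23.5 and 10.0 CPM against 50.9, 54.0 and 31.2 CPM, from 5, 12 and 14 UMIs. Over all libraries the difference was -1.76 ± 0.25 (adjusted p = 4.13e-06), and on library totals the call held (adjusted p = 0.0035). In wild types the levels were 2.74, 5.36 and 4.29 CPM against 6.21, 4.01 and 3.01 CPM, from 3, 7 and 12 UMIs. Its copy E430024P14Rik was lower in ribosome-poor cells of both genotypes. The means were 5.10 against 11.5 CPM in knock-outs and 15.6 against 46.9 CPM in wild types. The interaction of Gm49719 with genotype was -1.81 ± 0.45 (adjusted p = 0.029, with 2.87% of all genes called, 77.4% of them positive with TMM and 97.4% on library totals). The adjusted p was 0.0661 to 0.188 without any 1 of knock-out replicates 1 and 2 and wild-type replicates 2 and 3. The difference that chose Gm49719 came mostly from ribosome-rich cells, with 3208 knock-out UMIs beside 31 in ribosome-poor cells. Its interaction with genotype is therefore not a test free of that choice.

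A930015D03Rik stood at 10.3, 13.7 and 13.6 CPM in ribosome-poor and 19.2, 16.9 and 18.4 CPM in ribosome-rich cells of knock-outs. In knock-out libraries alone the difference was -1.28 ± 0.27 (edgeR adjusted p = 8.27e-05). Over all libraries it was -1.13 ± 0.23 (adjusted p = 0.000243), and on library totals -0.41 (adjusted p = 0.139). Gm10503 went the other way, with 12.8, 3.92 and 6.44 CPM from 5, 2 and 9 UMIs against 1.59, 1.85 and 1.94 CPM in knock-outs. In knock-out libraries alone its difference was 1.17 ± 0.52 and did not pass (edgeR adjusted p = 0.0545). Over all libraries it was 1.17 ± 0.51 and was called (adjusted p = 0.0477). On library totals the rise was 1.92 (adjusted p = 0.00446), and it was lost with adjusted p of 0.0606 to 0.261 without knock-out replicate 1 or 3 or any 1 of the wild-type libraries. In knock-out libraries alone, Gm20478, with 6 UMIs in all wild types, was lower in ribosome-poor cells (-1.37 ± 0.45, adjusted p = 0.00905). This rests on 10 UMIs in ribosome-poor cells of knock-outs, with means of 4.86 against 6.82 CPM. Over all libraries Gm20478 (-1.06 ± 0.49, adjusted p = 0.0606) and Gm10505 (-0.46 ± 0.43, adjusted p = 0.348) did not pass. On library totals the difference of Gm20478 over all libraries was -0.30 (edgeR adjusted p = 0.612). The sign of Gm10505 turned on library totals, to 0.21.

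**Figure D4:**
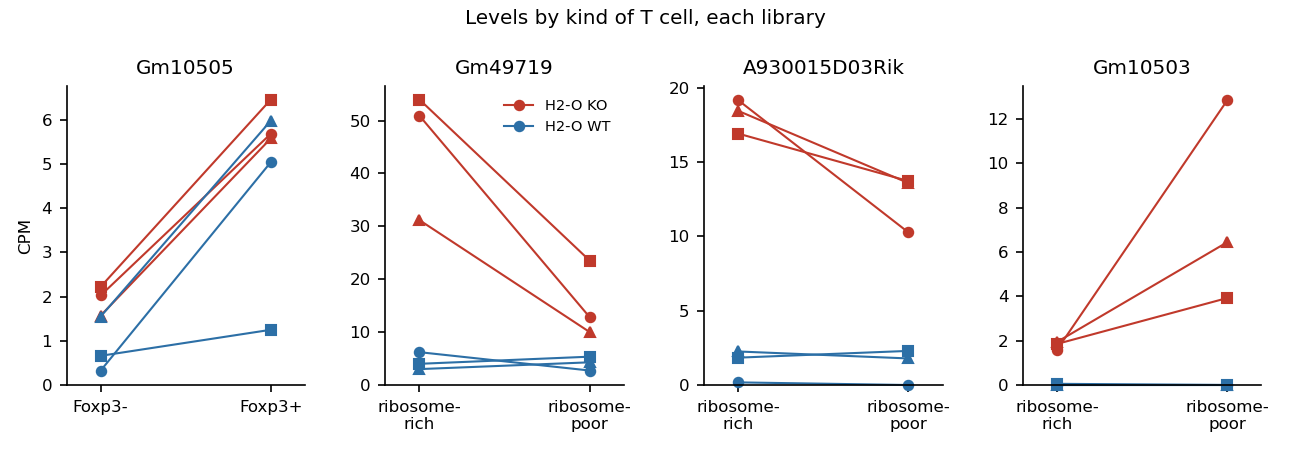
Levels (CPM, linear axes from 0) in 2 kinds of T cell joined for each library, knock-outs in red and wild types in blue, with the circle, square and triangle for replicates 1, 2 and 3. Gm10505 is higher in Foxp3+ cells in 6 of 6 libraries, Gm49719 and A930015D03Rik are lower and Gm10503 is higher in the ribosome-poor cells of each knock-out library.

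The genotype difference of the RNAs was also looked at within each kind of cell. Gm49719 had a log2 fold change of 3.21 ± 0.35 in Foxp3+, 3.26 ± 0.33 in memory-like (Foxp3-negative with a UMI of Cd44, S100a4 or Ccl5) and 1.59 ± 0.43 in ribosome-poor cells. For A930015D03Rik these values were 3.69 ± 0.48, 3.59 ± 0.38 and 2.89 ± 0.53. Gm20442 was at 0 UMIs in wild types in each of these kinds of cell and had 3, 1 and 4 UMIs in Foxp3+ cells and 8, 3 and 7 in memory-like cells of knock-outs. In ribosome-poor cells it had 0 UMIs in both genotypes. These cells held only 389557 to 1397922 UMIs of all genes per knock-out library. Beside a level of 1.33 CPM in ribosome-rich cells of knock-outs, 0 UMIs says little at that depth.

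Per cell, a UMI of Gm49719 was seen in 16.6% ± 5.66 (SD, n = 3) of T cells in knock-outs and 1.72% ± 0.495 (SD, n = 3) in wild types. After thinning each cell to 1500 UMIs, which left out 927 and 1362 shallower cells, the shares were 6.13% and 0.631%. For A930015D03Rik they were 7.58% ± 0.965 and 0.575% ± 0.463, and 2.85% and 0.171% after thinning. The other RNAs were seen in 0.55% to 2.97% of T cells in knock-outs and 0% to 0.382% in wild types. Whether any cell type lacks these RNAs was not examined, and the share that free RNA in the droplets gives was not measured.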

How the data were processed

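The deposited values are UMI counts per gene and cell barcode called by the authors with Cell Ranger 6.1.2 on mm10 (per the labels), without normalization; strand handling and multi-mapped reads are not given in the sources used here. The cell filter required 200 or more genes, no more than 12000 UMIs and no more than 5% mitochondrial UMIs, and doublets were removed only by the UMI limit. UMIs were summed per library and kind of T cell and tested with edgeR 4.0.16 under R 4.3.3 (quasi-likelihood test, TMM, filterByExpr for low counts, Benjamini-Hochberg adjustment over all genes, called under 0.05), with the library as a block between kinds of cell; DESeq2 1.42.0 was an alternative. Positions, neighbours and transcripts come from GENCODE for GRCm38, where 32158 of 32285 gene identifiers and all 8 RNAs were found by identifier. Copies were searched with BLAST+ 2.17.0 (identity of at least 95%) and aligned with Biopython 1.88.

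The members and lists were chosen with earlier results of these data known. The genes named are the 8 RNAs, H2-Oa, H2-Ob, the coding genes overlapping or next to each RNA, and the 2 largest rises and falls among called genes of 3 lists (class II, class I loading, noncoding genes of chromosome 17). A contrast and a list of similar genes that were also planned are not reported here. Tagap, Rsph3a, E430024P14Rik and BC023719 were added after their sequences or values were seen. Intervals and limits at 0 UMIs (3 counts) cover counting error only, and precision is set by 3 mice per genotype. On simulated counts with 2-fold changes, 96% of 200 changed genes were recovered with 12 false calls among 12173 genes between genotypes, and 89.8% of 197 with 6 false calls among 10187 genes between Foxp3+ and Foxp3-negative cells. The changed genes were drawn from those with at least 200 UMIs, and all genes were given the same dispersion. The rates therefore do not carry over to RNAs with fewer UMIs, such as Gm20442 with 96 in knock-outs, or with a wider spread between libraries.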

Additional observations from a re-analysis of the deposited data

Results flagged for a closer look

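Gm49719 differed between genotypes in its step from ribosome-rich to ribosome-poor T cells. The interaction of -1.81 on the log2 scale (edgeR adjusted p = 0.029) stands for a fall in H2-O KO libraries (-2.36) against -0.51 ± 0.37 SE in H2-O WT libraries. These sizes depend on TMM, without which the median gene of this contrast moved up by 0.68. The mean CPM of Gm49719 was 15.5 in ribosome-poor against 45.4 in ribosome-rich cells of H2-O KO. In H2-O WT it was nearly level, at 4.13 against 4.41 CPM. Ribosome-poor cells held 53 UMIs, of which 22 were in H2-O WT libraries. The interaction was -1.65 on library totals. Its call was lost without any 1 of H2-O KO replicates 1 and 2 and H2-O WT replicates 2 and 3. Gm49719 was chosen by a genotype difference that came mostly from ribosome-rich cells, so the interaction is not free of that choice. In the same contrast the copy E430024P14Rik fell in both genotypes, by -1.98 ± 0.39 SE in H2-O KO and -2.28 ± 0.15 SE in H2-O WT libraries. The interaction of the copy was 0.35 ± 0.47 SE (edgeR adjusted p = 0.778). How reads were split between Gm49719 and the copy was not tested. Gm19684, beside Gm20478, had an interaction of -0.97 (adjusted p = 0.0378) in the same contrast, and H2-T23, within A930015D03Rik, one of 0.66. In the contrast of Foxp3+ with Foxp3-negative T cells, H2-Oa had an interaction of -3.04 (adjusted p = 0.0108), higher in Foxp3+ cells of H2-O WT (1.65 ± 0.30 SE) and lower in those of H2-O KO (-1.38 ± 0.39). It was the only gene called in that interaction.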

How the results depend on the processing

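Of the results between genotypes, the 3840 genes called became 1044 in ribosome-rich T cells and 2353 in T cells with at least 2000 UMIs, and the 37 called within 1 Mb of H2-Oa became 12 and 22. Leaving out 1 library gave 2000 to 4602 genes and 22 to 42 within 1 Mb, with 2000 and 22 without knock-out replicate 1 and 2341 and 24 without wild-type replicate 1. In ribosome-rich T cells without knock-out replicates 1, 2 and 3 the counts were 83, 142 and 544 genes and 2, 2 and 6 within 1 Mb, and without wild-type replicates 1, 2 and 3 they were 161, 297 and 1121 genes and 3, 4 and 14 within 1 Mb. The count of neighbours stayed between 8 and 13, and the log2 fold change of each of the 8 RNAs was positive in each of 23 settings. The RNAs were chosen for this difference in these same libraries, so that the steady sign is no support for it. Between Foxp3+ and Foxp3-negative cells, 2 RNAs were called, with DESeq2, on library totals or in knock-out libraries 1, and 1 to 3 with 1 library left out. In wild-type libraries 0 were called here and between ribosome-poor and ribosome-rich cells, but Gm49719 was the only RNA tested in both, so that this says nothing of the others. Between ribosome-poor and ribosome-rich cells, 3 were called, 5 with no low-count filter, 2 to 3 with 1 library left out and 4 in knock-out libraries alone: A930015D03Rik, Gm49719, Gm20478 and Gm20442, the last from 0 UMIs in ribosome-poor cells. Their interaction with genotype gave 1 call, and 0 to 1 with 1 library left out; DESeq2 gave none of the RNAs an adjusted p there. The cause of these changes was not tested, beyond fewer libraries in some. Deviations of same-numbered libraries correlated at r = -0.089, 0.18 and 0.39; as not every pair was over 0.1, the numbers were not taken to pair mice, and a shared batch was not tested. With the replicate block 4493 genes, 13 neighbours and 40 genes within 1 Mb were called. Depth limits Gm20442, Gm10503, Gm20478 and Gm9937, with 0 to 10 UMIs per wild-type library. Settings on library totals and on unshared barcodes were chosen after seeing the data.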
